A study of Mus musculus with 15 samples.

Results

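Notch receptors, ligands and targets were followed across 15 mammary tumours of p53-null mice. The set was a fixed list of 10 gene symbols, with 4 receptors (Notch1, Notch2, Notch3 and Notch4), 4 ligands (Jag1, Jag2, Dll1 and Dll4) and 2 target genes (Hes1 and Hey1). All 10 were rows of the deposited table, which holds 17271 genes. Every tumour was labelled as a mouse mammary tumour of genotype p53-NULL and strain Balbc, so all groups share the loss of p53 and there is no p53-intact control. The samples fall into 4 models, among which 2208L has 8 samples, 2151R 4, 2225L 2 and T11 1. The titles mark 2 samples of 2151R as NT or NT2 and give the others (replicates 1 and 2) codes that are not explained. They mark 4 samples of 2208L (replicates 2 to 5) as PBS, 3 (replicates 6 to 8) as 3day nt and 1 (replicate 1) as ROSEN, and of 2225L replicate 1 as T-Vivo with a CP library number and replicate 2 as ROSEN. The sources used here give no age, no agent besides PBS and no statement that the samples of a model came from separate mice, so p-values measure the spread between these samples, which may be partly technical.

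Notch receptors are transmembrane proteins that are activated by ligands of the Jagged and Delta families on a neighbouring cell. Ligand binding lets ADAM proteases and then the gamma-secretase complex cut the receptor, and the freed intracellular domain joins the DNA-binding protein Rbpj and Mastermind coactivators to switch on genes such as Hes1 and Hey1. In the mammary gland the pathway takes part in the choice of luminal fate, Notch4 was found as a gene activated by mouse mammary tumour virus, and Notch4 and Dll4 are also well known in blood vessel endothelium and Notch3 in the mural cells around it.

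Each value is a log2 expression value of a gene, centred by the authors on a reference level of that gene which is not stated. A difference of 1 between samples is a doubling, but the level of one gene cannot be ranked against another, and 0 does not mean absence of expression. Models were compared with limma in a fit of all samples, and a gene was called when its Benjamini-Hochberg adjusted p over the 17271 genes was under 0.05. T11 has 1 sample and therefore no test. The table gives log2 values alone, so depth is unknown. Sample medians over all genes lay between -0.294 and 0.1, and the median gene differed by 0.101 between 2151R and 2208L, by -0.044 between 2225L and 2208L and by -0.102 between 2225L and 2151R. Skeletal muscle genes were high in replicate 3 of 2151R and in replicates 6 and 8 of 2208L, and results that rest on these samples are also given without them.

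The stretches upstream of 4 members are shown because these genes moved in opposite directions between 2151R and 2208L, Notch1 and Dll1 being lower and Notch2 and Jag1 higher in 2151R. The table of upstream stretches has entries for 8 of the 10 genes, Hes1 and Hey1 being the others. Each is the 250 bases before the gene's start in RefSeq on GRCm38.p6, the assembly that mm10 names, written 5′ to 3′ on the gene's own strand. Notch1 lies on the minus strand of chromosome 2 (gene 26457902 to 26503822, stretch chr2:26503823-26504072), and Dll1 on the minus strand of chromosome 17 (gene 15367354 to 15376932, stretch chr17:15376933-15377182). Notch2 lies on the plus strand of chromosome 3 (gene 98013538 to 98150367, stretch chr3:98013288-98013537), and Jag1 on the minus strand of chromosome 2 (gene 137081451 to 137116520, stretch chr2:137116521-137116770). Capitals mark a GC box (GGGCGG, both strands) or an E2 box (CAGGTG, both strands), the motif that Zeb and Snail repressors of epithelial genes are known to bind.
Notch1: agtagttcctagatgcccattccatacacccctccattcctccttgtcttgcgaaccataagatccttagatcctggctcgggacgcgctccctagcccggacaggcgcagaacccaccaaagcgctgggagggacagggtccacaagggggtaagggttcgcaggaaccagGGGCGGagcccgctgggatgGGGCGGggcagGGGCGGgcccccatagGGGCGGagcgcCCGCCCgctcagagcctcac
Dll1: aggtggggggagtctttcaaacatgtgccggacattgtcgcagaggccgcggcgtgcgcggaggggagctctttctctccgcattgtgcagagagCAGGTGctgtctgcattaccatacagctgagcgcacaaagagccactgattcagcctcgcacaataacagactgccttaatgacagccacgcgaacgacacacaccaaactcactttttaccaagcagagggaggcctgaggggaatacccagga
Notch2: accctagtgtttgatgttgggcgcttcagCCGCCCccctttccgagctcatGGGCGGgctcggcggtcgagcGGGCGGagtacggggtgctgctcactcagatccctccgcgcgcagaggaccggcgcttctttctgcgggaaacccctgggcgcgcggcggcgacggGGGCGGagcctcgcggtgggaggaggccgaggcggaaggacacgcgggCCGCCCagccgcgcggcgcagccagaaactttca
Jag1: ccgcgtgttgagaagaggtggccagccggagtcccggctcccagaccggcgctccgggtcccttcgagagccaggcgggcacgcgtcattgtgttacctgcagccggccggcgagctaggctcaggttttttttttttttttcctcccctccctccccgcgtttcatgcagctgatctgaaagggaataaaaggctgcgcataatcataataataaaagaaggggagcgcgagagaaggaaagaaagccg

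Notch1 and Notch2, the receptors that moved in opposite directions, each held 5 GC boxes, while Dll1 and Jag1 held 0. Of 32851 upstream stretches of this length in RefSeq, 32.7% held at least 1 GC box. The Dll1 stretch shown held 1 E2 box, which 17.2% of the stretches hold, and the other 3 held none. Another entry for Dll1 (chr17:15375824-15376073), not wholly outside the gene and not shown, held 0 E2 boxes. The core of the site that Rbpj binds (TGGGAA, both strands) was in none of the 4, against 21.6% of all stretches. A match or its absence describes these letters and says nothing of binding. The stretches were rich in G and C, at 66% for Notch1, 72% for Notch2, 56% for Dll1 and 57.2% for Jag1, where the median stretch had 52.4%.

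The 4 receptors split into pairs between 2151R and 2208L. Notch2 and Notch4 were 3.90-fold and 3.60-fold higher in 2151R, and Notch1 and Notch3 were 2.18-fold and 2.62-fold lower. All 4 passed the test, and with the ligands and targets 7 of the 10 genes did, 3 of them higher and 4 lower in 2151R. The background is high in this comparison, since 48.8% of all genes were called, 26.1% higher and 22.7% lower.

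**Figure D1:**
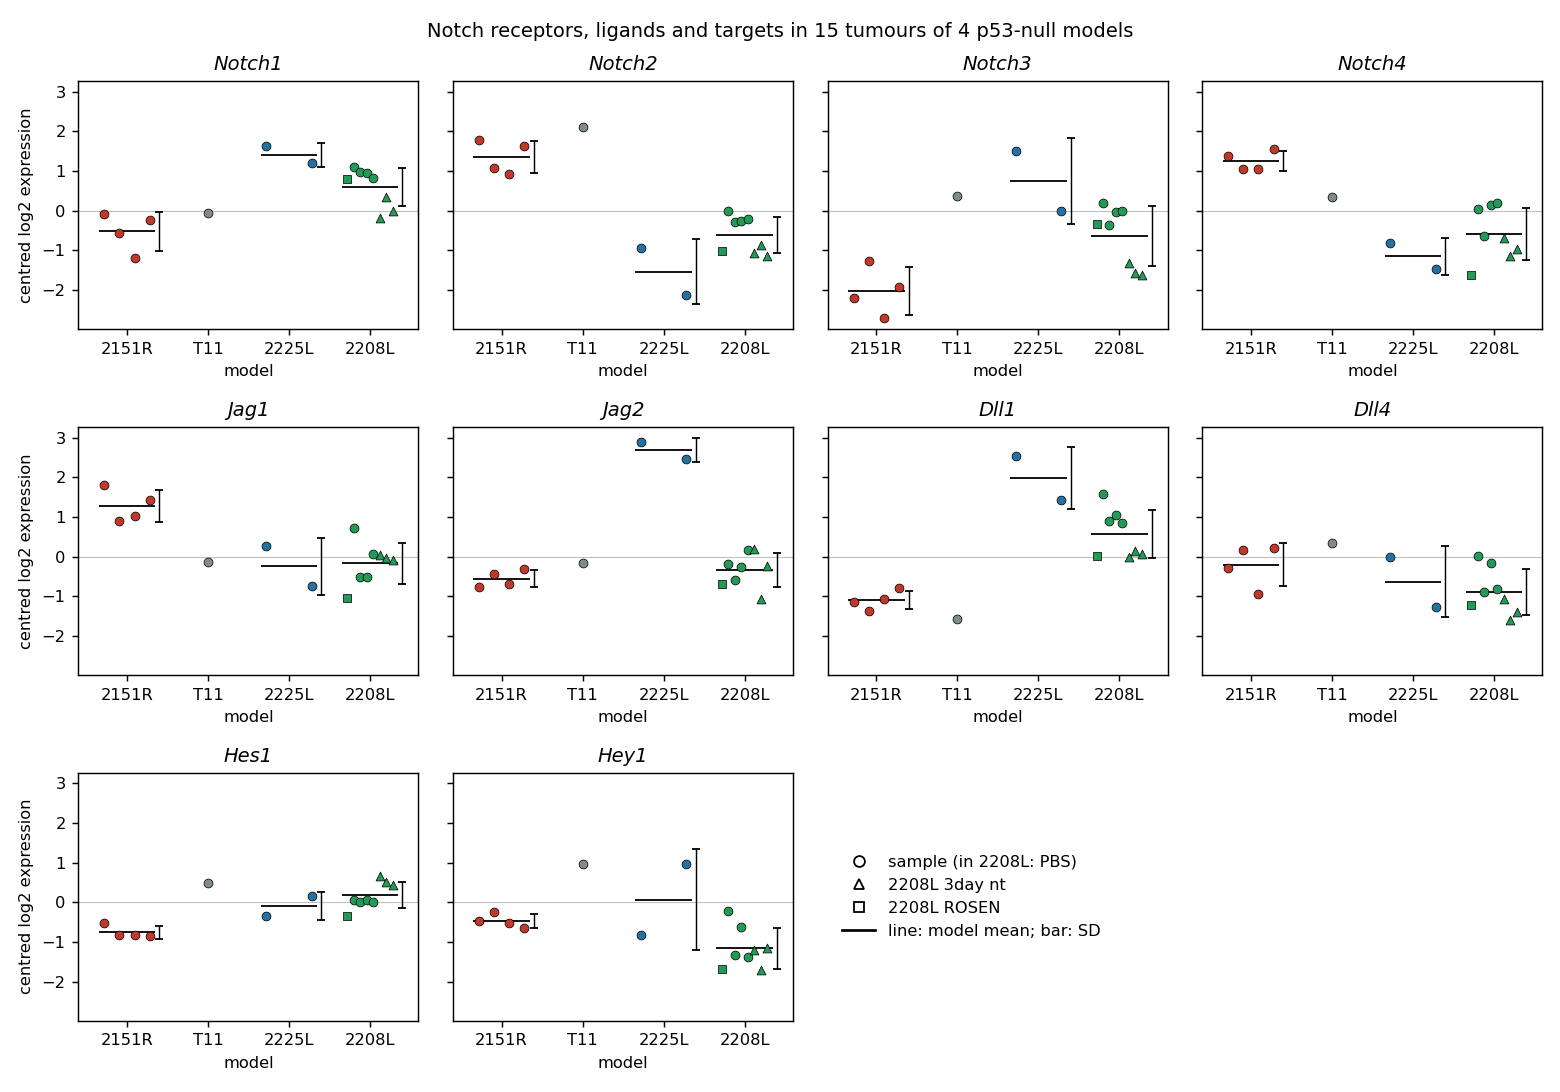
Centred log2 expression (vertical axis) of the 10 Notch genes in each of 15 tumours, by model (horizontal axis). Points are samples, lines are model means and bars SDs; Notch2 and Notch4 were above every 2208L sample in all 4 samples of 2151R, and Jag2 reached 2.47 and 2.90 in the 2 samples of 2225L.

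Notch2, a receptor, was high in 2151R and T11. It was 1.77, 1.09, 0.93 and 1.63 in the 4 samples of 2151R and 2.10 in T11, while the 8 samples of 2208L ran from -1.15 to 0.00 with a median of -0.58. The 2 samples of 2225L lay at -0.95 and -2.11. Samples of 2151R and T11 were thus all above those of 2208L and 2225L, with no overlap. The difference between 2151R and 2208L was 1.96 (SE 0.29, limma adjusted p 9.11e-05), and that between 2225L and 2151R was -2.89 (SE 0.41, limma adjusted p 7.90e-05). Between 2225L and 2208L it was -0.92 (95% interval -1.73 to -0.12) and did not pass (limma adjusted p 0.0754). That difference was called against the PBS samples alone (-1.34, limma adjusted p 0.0122), without replicate 1 of 2225L (-1.51, limma adjusted p 0.026) and without the 3 muscle-rich samples (-1.09, limma adjusted p 0.0408), and it was -0.34 without replicate 2 of 2225L.

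Notch4 (chromosome 17, 34564286 to 34588543) was also high in 2151R, at 1.38, 1.06, 1.06 and 1.57. The samples of 2208L ran from -1.61 to 0.19 with a median of -0.66, those of 2225L were -0.82 and -1.48, and T11 was 0.34. No sample of another model reached the lowest of 2151R. The difference from 2208L was 1.85 (SE 0.33, limma adjusted p 0.000408). Between 2225L and 2151R it was -2.41 (SE 0.46, limma adjusted p 0.000864). The samples of 2225L and 2208L overlapped, with a difference of -0.56 (95% interval -1.48 to 0.35, limma adjusted p 0.333). Against the PBS samples alone the difference was -1.09, and both samples of 2225L lay below the lowest PBS sample (-0.63). Of the alternatives run, Notch4 was called lower in 2225L in 1 (limma adjusted p 0.0154).

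Notch1, the most widely studied of the receptors, ran the other way. Its values were -0.09, -0.55, -1.20 and -0.24 in 2151R, -0.05 in T11 and 1.63 and 1.20 in 2225L, and those of 2208L ran from -0.18 to 1.11 with a median of 0.81. Both samples of 2225L were above every other sample, and the lowest of 2208L fell within the range of 2151R. Notch1 was lower in 2151R than in 2208L (-1.12, SE 0.28, limma adjusted p 0.0048) and higher in 2225L than in 2151R (1.93, SE 0.40, limma adjusted p 0.00139). Between 2225L and 2208L the difference of 0.81 (95% interval 0.03 to 1.59) did not pass (limma adjusted p 0.105), although the samples did not overlap. Against the 3day nt samples of 2208L alone, Notch1 was no longer called in 2151R (-0.58, limma adjusted p 0.131), and it was called in 2225L (1.36, limma adjusted p 0.0217).

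Notch3 (chromosome 17, 32120820 to 32166896) was lowest in 2151R, at -2.20, -1.26, -2.70 and -1.91. It was 0.37 in T11 and 1.51 and -0.01 in 2225L, and in 2208L it ran from -1.62 to 0.20 with a median of -0.35. T11 was above all samples of 2151R and above all of 2208L. The difference of 2151R from 2208L was -1.39 (SE 0.43, limma adjusted p 0.0163), and that of 2225L from 2151R was 2.77 (SE 0.61, limma adjusted p 0.0022). The first was lost with quantile normalization (-1.10, limma adjusted p 0.0646), without replicate 3 of 2151R (-1.16, limma adjusted p 0.0631) and against the 3day nt samples alone (-0.52, limma adjusted p 0.339). Between 2225L and 2208L Notch3 differed by 1.38 (95% interval 0.18 to 2.58, limma adjusted p 0.0731). The difference was 2.14 without replicate 2 of 2225L and 0.62 without its replicate 1. Against the 3day nt samples alone it was 2.25, and the lowest limma adjusted p over the alternatives was 0.0136.

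Among the ligands, Jag2 and Dll1 were highest in 2225L and Jag1 was highest in 2151R. Jag2 was 8.07-fold higher in 2225L than in 2208L. Of the 10 genes, 3 were called between 2225L and 2208L, and all 3 were higher in 2225L (Jag2, Dll1 and Hey1). The background was 32.9% of genes called, 15.6% higher and 17.3% lower. With sample weights estimated from the data Jag2 was the only one still called.

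Jag2 (chromosome 12, 112907803 to 112929812), a ligand of the Jagged family, was 2.90 and 2.47 in the 2 samples of 2225L. No other tumour was above 0.20, with -0.78, -0.43, -0.69 and -0.32 in 2151R, -0.16 in T11 and a range from -1.07 to 0.20 (median -0.24) in 2208L. The gap between 2225L and the rest was wider than the range within any model. The difference from 2208L was 3.01 (SE 0.29, limma adjusted p 8.31e-06) and that from 2151R was 3.24 (SE 0.32, limma adjusted p 3.28e-06). Jag2 differed by -0.22 between 2151R and 2208L (95% interval -0.71 to 0.27, limma adjusted p 0.439).

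Dll1, a Delta ligand, was lowest in 2151R and T11 and highest in 2225L. It was -1.13, -1.36, -1.08 and -0.79 in 2151R and -1.58 in T11, it ran from 0.00 to 1.58 in 2208L with a median of 0.50, and it was 2.53 and 1.43 in 2225L. The samples of 2151R and T11 lay below all others, while the lower sample of 2225L lay within the range of 2208L. Dll1 was called in each model comparison, lower in 2151R than in 2208L (-1.66, SE 0.32, limma adjusted p 0.00075), higher in 2225L than in 2151R (3.07, SE 0.45, limma adjusted p 0.000104) and higher in 2225L than in 2208L (1.41, SE 0.41, limma adjusted p 0.0186). The last call was lost with quantile normalization (0.87, limma adjusted p 0.168), with sample weights (1.08, limma adjusted p 0.32), without replicate 1 of 2225L (0.86, limma adjusted p 0.235) and against the PBS samples alone (0.89, limma adjusted p 0.0527).

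Jag1, the other Jagged ligand, was 1.79, 0.89, 1.02 and 1.42 in 2151R. It was -0.13 in T11, 0.25 and -0.75 in 2225L and from -1.04 to 0.72 in 2208L, with a median of -0.06. All samples of 2151R were above all other tumours, T11 included. The difference from 2208L was 1.45 (SE 0.30, limma adjusted p 0.00137), a 2.74-fold higher level, and 2225L was lower than 2151R (-1.53, SE 0.43, limma adjusted p 0.00983). The latter was lost without replicate 2 of 2225L (-1.03, limma adjusted p 0.145) and with sample weights (-1.63, limma adjusted p 0.107). Jag1 differed by -0.07 between 2225L and 2208L (95% interval -0.92 to 0.77, limma adjusted p 0.904).

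Dll4 (chromosome 2, 119325784 to 119335666), the Delta ligand best known from sprouting vessels, was called in no model comparison. It was -0.28, 0.17, -0.94 and 0.22 in 2151R, 0.35 in T11, 0.00 and -1.27 in 2225L and from -1.60 to 0.03 in 2208L, with a median of -0.98. T11 was the highest of all, and the models overlapped. The differences were 0.69 between 2151R and 2208L (95% interval -0.06 to 1.44, limma adjusted p 0.119), 0.26 between 2225L and 2208L (95% interval -0.71 to 1.23, limma adjusted p 0.697) and -0.43 between 2225L and 2151R (95% interval -1.49 to 0.63, limma adjusted p 0.494). Against the 3day nt samples alone Dll4 was called higher in 2151R (1.15, limma adjusted p 0.0373).

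Of the target genes, Hes1 was called between 2151R and 2208L and Hey1 between 2225L and 2208L. Hes1 (chromosome 16, 30065357 to 30067796), a transcriptional repressor, was -0.51, -0.83, -0.82 and -0.86 in 2151R, while 2208L ran from -0.34 to 0.66 with a median of 0.07. T11 was 0.48 and 2225L -0.33 and 0.16. All samples of 2151R were below all other tumours, and Hes1 was 1.91-fold lower than in 2208L (difference -0.93, SE 0.19, limma adjusted p 0.00109). Between 2225L and 2151R it differed by 0.67 (95% interval 0.10 to 1.24) and just missed the threshold (limma adjusted p 0.052). It passed in 4 alternatives, among them that with samples centred on their medians (0.74, limma adjusted p 0.0208). Between 2225L and 2208L it differed by -0.26 (95% interval -0.79 to 0.26, limma adjusted p 0.436).

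Hey1 (chromosome 3, 8663359 to 8667038), a related repressor, was -0.47, -0.24, -0.52 and -0.63 in 2151R and 0.97 in T11. It was -0.83 and 0.97 in 2225L, the widest gap between these samples among the 10 genes, and ran from -1.70 to -0.20 in 2208L with a median of -1.27. T11 was above all 2151R and 2208L samples. Hey1 was called higher in 2225L than in 2208L (difference 1.23, SE 0.43, limma adjusted p 0.0416), but the call rested on replicate 2 of 2225L, without which the difference was 0.32 (limma adjusted p 0.65), and it was lost on leaving out any 1 of replicates 1, 3, 5, 6, 7 and 8 of 2208L. It was also lost without the 3 muscle-rich samples (1.22, limma adjusted p 0.0827), with sample weights (1.01, limma adjusted p 0.373), with the library prefix as a covariate, with only these models in the fit and against either subset of 2208L alone. Between 2151R and 2208L the difference of 0.69 (95% interval -0.02 to 1.40, limma adjusted p 0.101) did not pass in the fit of all samples. It passed in 3 alternatives, among them quantile normalization (0.79, limma adjusted p 0.0274) and the fit without replicate 2 of 2208L (0.83, limma adjusted p 0.0387).

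**Figure D2:**
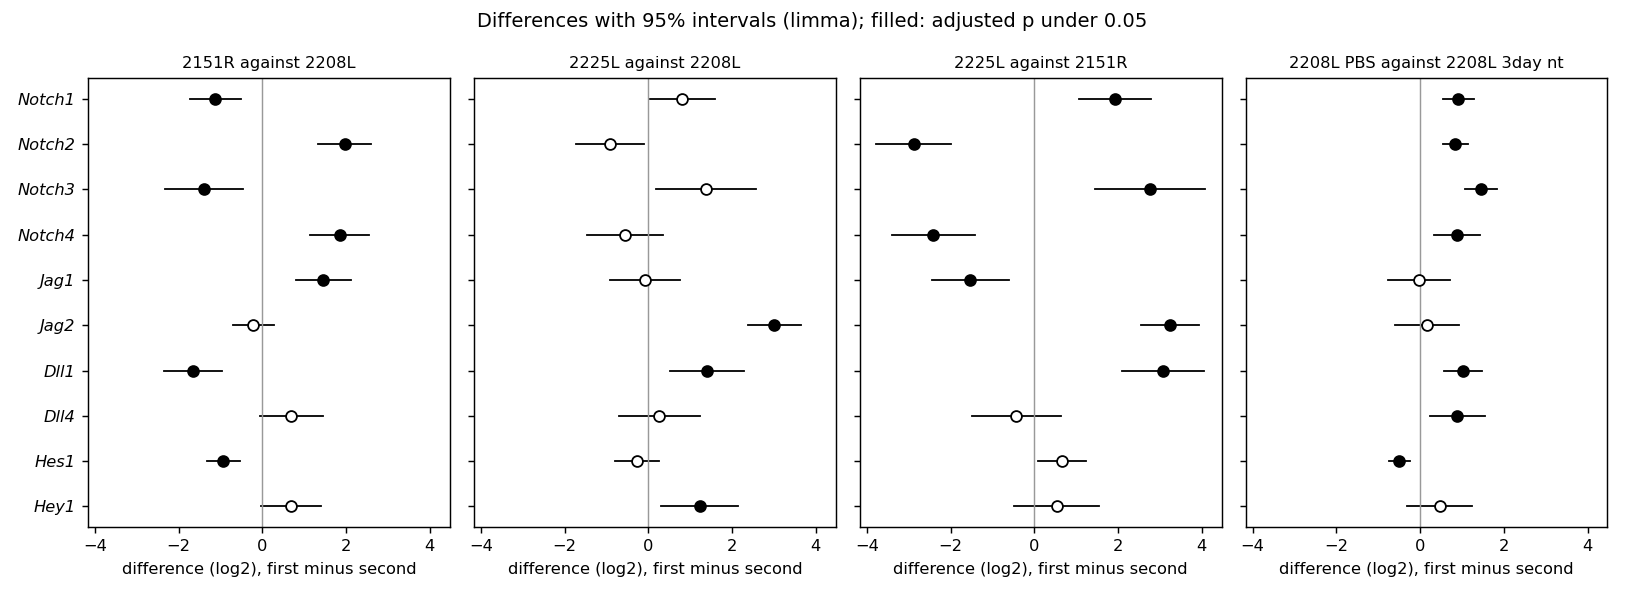
Differences in log2 expression (horizontal axis) of the 10 Notch genes (vertical axis) in 4 comparisons, as first group minus second. Points are limma estimates, lines 95% intervals and filled points have an adjusted p under 0.05; the largest differences were those of Jag2 (3.24) and Dll1 (3.07) between 2225L and 2151R.

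The contrast between 2225L and 2151R was the widest. Of the 10 genes 7 were called, 4 of them higher in 2225L (Notch1, Notch3, Jag2 and Dll1) and 3 lower (Notch2, Notch4 and Jag1). Over all genes 48.6% were called, 22.8% higher and 25.8% lower. The median size of the difference was 2.17 over the 10 genes and 0.933 over all genes. It was 1.26 against 0.678 between 2151R and 2208L and 0.866 against 0.632 between 2225L and 2208L. The samples did not overlap at 8 of the 10 genes, where 62.4% of all genes do not overlap with groups this small. Between 2151R and 2208L they did not overlap at 5 of 10 (38.8% of all genes), and between 2225L and 2208L at 2 of 10 (31.7%). These comparisons share samples, so their differences are not independent of each other.

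Differences between genes of a pair within a sample do not change when all values of that sample are shifted by the same log2 amount. Other kinds of normalization can change them. Notch1 minus Notch2 ran from -2.13 to -1.64 in 2151R, was -2.15 in T11, ran from 0.88 to 1.80 in 2208L and was 2.58 and 3.31 in 2225L. The balance of Notch1 and Notch2 therefore placed 2151R and T11 together, 2208L apart from them and 2225L farthest, with no overlap. Notch3 minus Notch2 ran from -3.98 to -2.35 in 2151R and from -0.70 to 0.67 in 2208L, and was 2.46 and 2.10 in 2225L. T11, at -1.73, lay between 2151R and 2208L there. Dll1 minus Dll4 was -1.94 in T11, ran from -1.53 to -0.14 in 2151R and from 1.06 to 1.79 in 2208L and was 2.53 and 2.70 in 2225L. Jag2 minus Jag1 kept 2151R (-2.57 to -1.32), 2208L (-1.05 to 0.36) and 2225L (2.64 and 3.22) apart, but T11, at -0.03, lay within 2208L. These pairs were chosen after the values were seen and are given without a test.

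**Figure D3:**
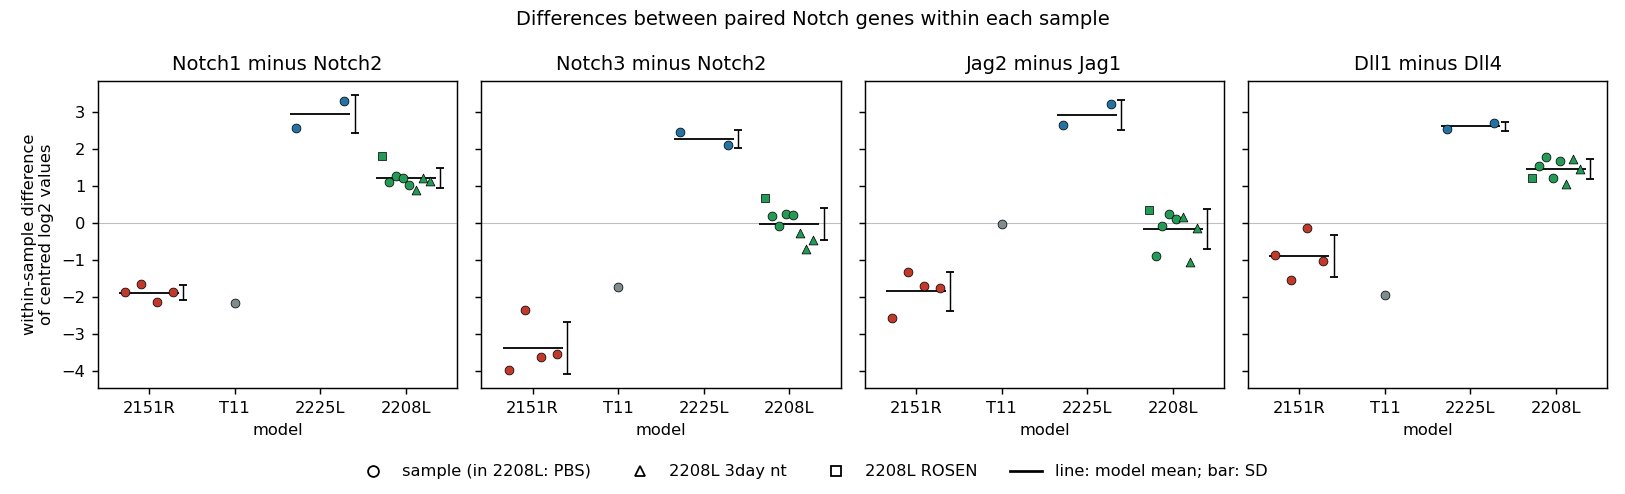
Differences of centred log2 values between 2 Notch genes within a sample (vertical axis), by model (horizontal axis). Points are samples, lines model means and bars SDs; Notch1 minus Notch2 was at most -1.64 in the 2151R and T11 samples and at least 0.88 in the 2208L and 2225L samples.

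T11 was outside the range of the other 14 samples at 4 of the 10 genes, above it at Notch2, Dll4 and Hey1 and below it at Dll1. Over all genes this held for 26.8%. T11 was outside the range of 2151R at all 10 genes, above it at 7 and below it at 3 (Notch4, Jag1 and Dll1). Over all genes 70.7% were outside that range. Its values differed from the mean of 2151R most at Notch3 (2.39), Hey1 (1.44), Jag1 (-1.41) and Hes1 (1.24). With 1 sample these are descriptions of a single library.

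Within 2208L the 4 PBS samples and the 3 titled 3day nt differed at 7 of the 10 genes, 6 higher and 1 lower in PBS, by limma on those 7 samples. Over all genes 34% were called, 17.4% higher and 16.5% lower, and the samples did not overlap at 7 of the 10 genes, where 44.8% of all genes did not. All 4 receptors were higher in PBS. Notch3 was 0.20, -0.37, -0.03 and 0.00 in PBS and -1.32, -1.56 and -1.62 in 3day nt samples, a difference of 1.45 (SE 0.16, limma adjusted p 0.00341). Notch1 differed by 0.91 (SE 0.16, limma adjusted p 0.00814), Notch2 by 0.84 (SE 0.13, limma adjusted p 0.0061) and Notch4 by 0.87 (SE 0.23, limma adjusted p 0.0298). The receptors that split between 2151R and 2208L thus moved the same way here.

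Of the ligands, Dll1 was 1.58, 0.90, 1.05 and 0.85 in PBS and 0.00, 0.14 and 0.07 in 3day nt samples (difference 1.02, SE 0.19, limma adjusted p 0.0103). Dll4 differed by 0.89 (SE 0.28, limma adjusted p 0.0468). Neither Jag1 (-0.03, 95% interval -0.78 to 0.71) nor Jag2 (0.15, 95% interval -0.61 to 0.92) passed. Hes1 was the gene that was lower in PBS, at 0.07, 0.00, 0.07 and 0.02 against 0.66, 0.51 and 0.44, with no overlap (difference -0.49, SE 0.10, limma adjusted p 0.0129). Hey1 differed by 0.46 (95% interval -0.32 to 1.25, limma adjusted p 0.3). The library numbers in the titles differ between the subsets in separate ranges. Titles of PBS samples also begin with DH codes and those of 3day nt samples with KM codes, which are not explained. Neither the library numbers nor these codes can be told apart from the subsets themselves. The same holds for 2151R, whose library numbers form a range of their own.

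Replicates 6 and 8, both 3day nt, have high muscle genes. With both left out, 1 sample of 3day nt remained, which is assumed to vary like the PBS samples, and limma called 0 of the 10 genes, where 7 had an unadjusted p under 0.05. The differences were then 1.51 for Notch3, 0.61 for Notch1, 0.68 for Notch2, 0.95 for Dll1 and -0.47 for Hes1. The calls of Notch4 and Dll4 were also lost without replicate 2, 4, 6, 7 or 8 of 2208L, and that of Notch4 without replicate 5, with differences from 0.77 to 0.996 for Notch4 and from 0.72 to 1.04 for Dll4. The call of Hes1 was lost without replicate 6 (-0.43, limma adjusted p 0.0519).

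Of 60 further genes of the pathway in a fixed list, 54 were in the table. Between 2151R and 2208L 26 of the 54 were called (15 higher, 11 lower), with a median difference of 0.10, equal to that over all genes at this precision. Between 2225L and 2208L 20 were called (8 higher, 12 lower) and between 2225L and 2151R 25 (11 higher, 14 lower). These shares, 48.1%, 37% and 46.3%, lay near the shares over all genes. Between the PBS and 3day nt samples 21 were called (16 higher, 5 lower, or 38.9%), among them 6 of the 16 nuclear factors, all higher in PBS, where 34% of all genes were called. The count for 2151R against 2208L fell to 17 without replicate 1 of 2151R.

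Dlk2, an atypical ligand of the Delta-like family, had the largest difference among them. In 2225L it was 3.05 ± 0.66 (SD, n = 2), and 2208L stood at -3.85 ± 0.87 (SD, n = 8). Between them lay 2151R at -2.61 ± 0.12 (SD, n = 4) and T11 at 0.19. The difference of 2225L from 2208L was 6.90 (SE 0.54, limma adjusted p 1.11e-06) and from 2151R 5.66 (SE 0.59, limma adjusted p 4.88e-06). 2225L was therefore the highest model for Jag2, Dll1 and Dlk2 alike. Dlk1, the other atypical ligand in the table, was called in none of the 3 model comparisons.

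Among 5 other genes listed as targets, Dtx1, which encodes a Deltex ubiquitin ligase, was highest in 2208L at 2.17 ± 0.38 (SD, n = 8). Whether the listed genes respond to Notch in these tumours was not tested. For Dtx1, 2225L came next at 0.09 ± 0.70 (SD, n = 2), then 2151R at -1.95 ± 0.73 (SD, n = 4) and T11 at -3.21. Dtx1 was lower in 2151R than in 2208L (-4.12, SE 0.31, limma adjusted p 1.76e-07) and lower in 2225L than in 2208L (-2.08, SE 0.40, limma adjusted p 0.0016). Hes6 was lower in 2151R than in 2208L (-1.44, limma adjusted p 0.00181) and higher in 2225L than in 2151R (2.38, limma adjusted p 0.000659). Nrarp, which encodes a repeat protein that restrains Notch signalling, was higher in 2225L than in 2208L (1.28, limma adjusted p 0.0378). Hey2 and Heyl, the rest of these listed genes, were called in none of the 3 model comparisons.

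Among 16 nuclear factors, Rbpj was highest in T11 at 0.86 and 2151R at 0.74 ± 0.17 (SD, n = 4). It stood at -0.06 ± 0.20 (SD, n = 8) for 2208L and at -1.30 ± 0.28 (SD, n = 2) for 2225L. It was higher in 2151R than in 2208L by 0.80 (SE 0.14, limma adjusted p 0.00049) and lower in 2225L than in 2151R (-2.04, SE 0.20, limma adjusted p 3.68e-06). The order of models was that of Notch2. Of the Mastermind coactivators, Maml3 was lower in 2225L than in 2151R (-1.91, limma adjusted p 0.00182). Kat2b, a histone acetyltransferase, was lower in 2225L than in 2208L (-2.12, SE 0.16, limma adjusted p 1.11e-06). Rbpjl, a relative of Rbpj, was lower in 2151R than in 2208L (-1.53, limma adjusted p 0.0135) and higher in 2225L than in 2151R (2.69, limma adjusted p 0.00403), and Spen, a corepressor, was higher in 2151R than in 2208L (1.37, limma adjusted p 0.0182).

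Genes of receptor processing and turnover moved in both directions. Of 10 protease genes 5 were called between 2151R and 2208L, 2 higher and 3 lower, and between 2225L and 2208L 4 were called, all lower, against 48.8% and 32.9% of all genes called in either direction. Furin, which cuts the receptor precursor, was lower in 2225L than in 2151R (-1.82, SE 0.34, limma adjusted p 0.000697). Of 5 glycosylation genes, which tune the response to ligands, 3 were called between 2151R and 2208L and 3 between 2225L and 2208L, all higher than in 2208L. Dtx4 was higher in 2151R (2.85, limma adjusted p 1.39e-07) and in 2225L (2.35, limma adjusted p 3.27e-05) than in 2208L, and Dtx2 was higher in 2151R (1.45, limma adjusted p 1.81e-06). Neurl3, a relative of the Neuralized ubiquitin ligases, was lower in 2225L than in 2208L (-1.63, limma adjusted p 0.00449).

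**Figure D4:**
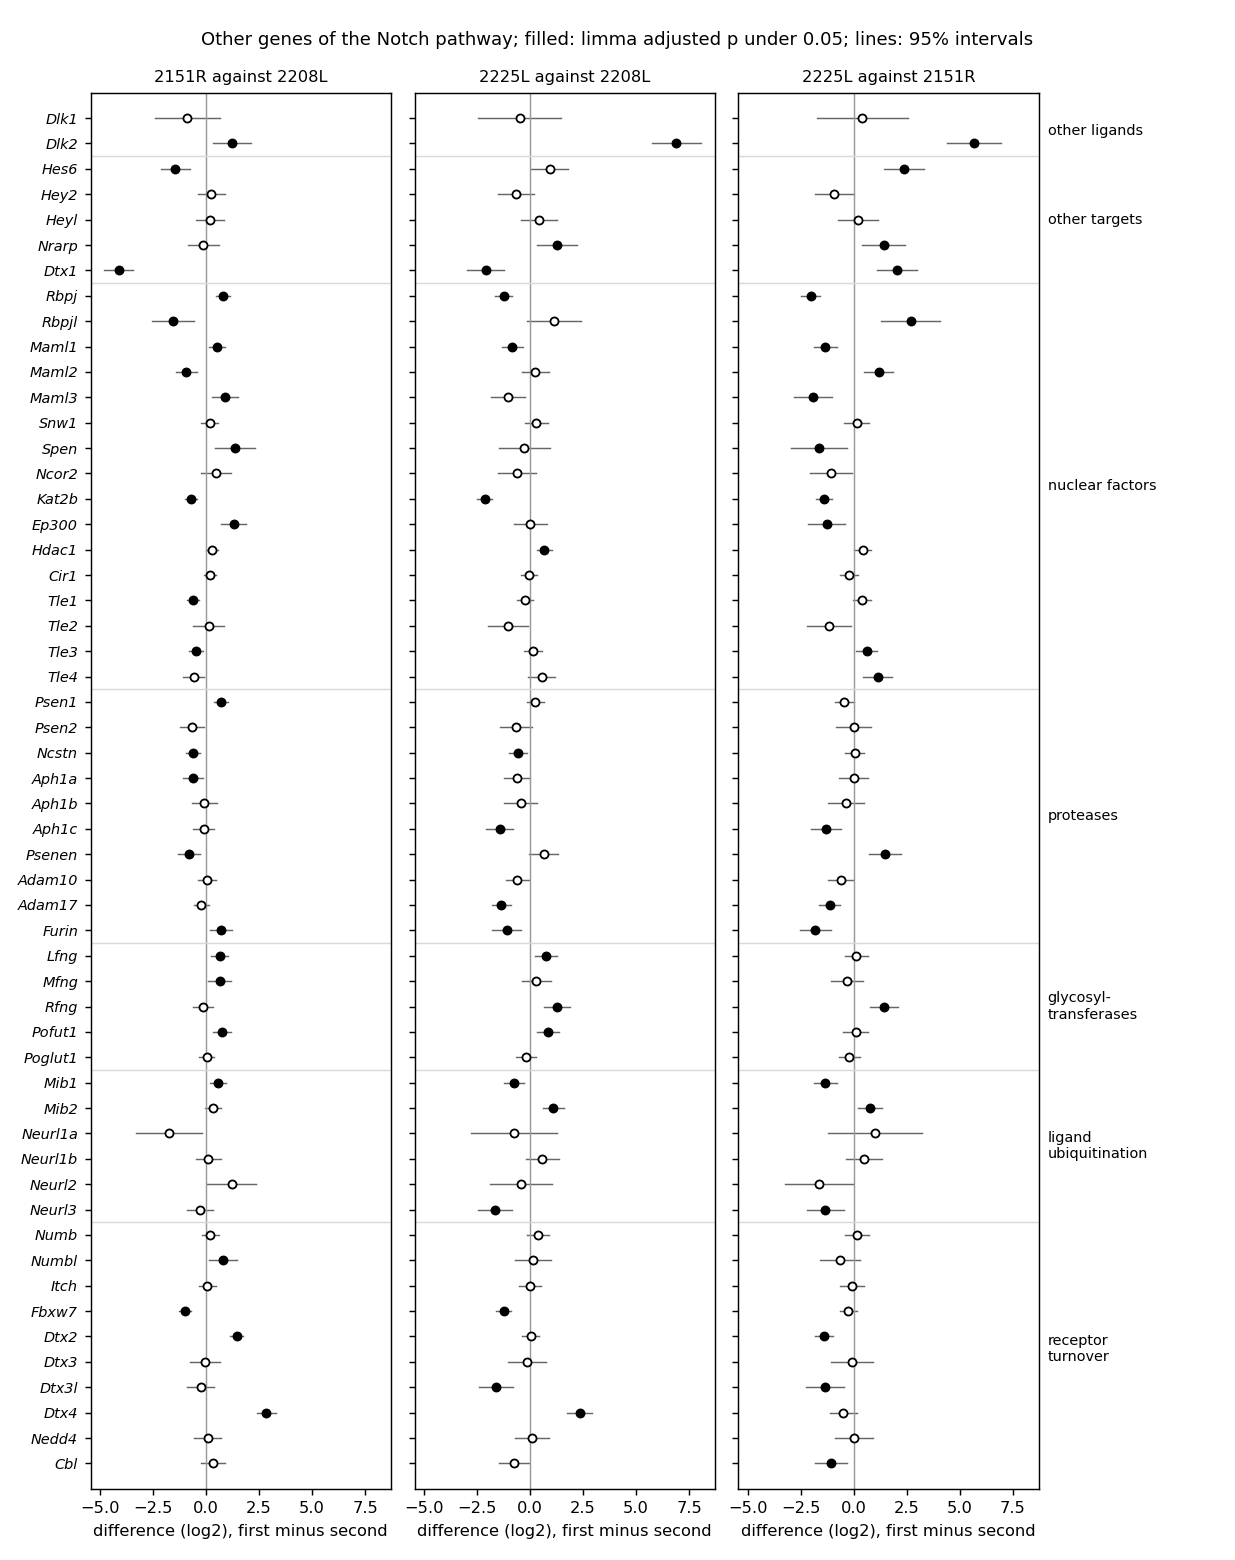
Differences in log2 expression (horizontal axis) of 54 further Notch pathway genes (vertical axis, grouped by role) in the 3 model comparisons, as first model minus second. Points are limma estimates, lines 95% intervals and filled points have an adjusted p under 0.05; Dlk2 stands out at 6.90 and Dtx1 at -4.12.

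Some markers of cell types that carry Notch genes also differed between models. In bulk tumours fewer cells of a type and less RNA per cell cannot be told apart. A list's level in a sample is given as the median over its genes of the value minus the gene's mean over the 15 samples. Against 2208L, 2151R had 7 of 12 endothelial genes (58.3%) called higher and 0 lower. Of all genes, 48.8% were called there, 26.1% higher and 22.7% lower. Erg was at 1.53 and Tek at 1.52, beside Notch4 at 1.85 and Jag1 at 1.45. The endothelial level ran from 0.33 to 0.94 in 2151R and from -1.04 to 0.58 in 2208L, was -0.76 and 0.33 in 2225L and 0.63 in T11. Between the PBS and 3day nt samples of 2208L, where Notch4 and Dll4 differed, 1 of the 12 was called, against 34% of all genes. This was Flt1, higher in PBS (1.51, limma adjusted p 0.00276), as Notch4 and Dll4 were. The endothelial levels overlapped there (-0.72 to 0.15 and -0.75 to 0.58). The part of endothelial cells in the Notch4, Jag1 and Dll4 differences was not tested.

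Of 9 mural genes 3 (33.3%) were called between 2151R and 2208L (1 higher, 2 lower), a share below the 48.8% of all genes. Those lower were Cspg4 (-1.03, limma adjusted p 0.000936) and Acta2 (-0.91, limma adjusted p 0.0253), beside Notch3 at -1.39. Myh11 was higher (1.36, limma adjusted p 0.0445). Des, at -1.66, was not called (limma adjusted p 0.419). Its mean was 3.40 in the 3day nt samples, which include muscle-rich ones, and -0.25 in the PBS samples. Mural levels overlapped between 2151R (-0.37 to 0.16) and 2208L (-0.61 to 0.66). Between PBS and 3day nt samples, where Notch3 differed by 1.45, 2 of the 9 (22.2%) were called, against 34% of all genes. Both were higher in PBS, Kcnj8 (2.21, limma adjusted p 0.00276) and Abcc9 (1.58, limma adjusted p 0.0244). The mural levels overlapped there (-0.19 to 0.66 and -0.61 to 0.10). Against 2208L, 2151R had 9 of 10 epithelial genes called lower and 1 higher, where 22.7% and 26.1% of all genes were. Cldn7 was at -8.34 and Cldn3 at -7.33. The list's level ran from -4.61 to -3.52 in 2151R and was -8.17 in T11, against 2.19 to 2.79 in 2208L and 2.38 to 2.56 in 2225L. The tumours low in these mammary epithelial genes were those low in Dll1 and high in Notch2. Of 8 basal genes 6 were called higher in 2225L than in 2208L and none lower, where 15.6% of all genes were called higher. The basal level was 3.42 and 5.14 in 2225L, where Jag2 was high, against -0.17 to 0.86 in 2208L and -4.65 in T11. In 2151R against 2208L 7 basal genes were called (2 higher, 5 lower), or 87.5% of the list against 48.8% of all genes. Dsg3 was at -8.62 and Krt5, a gene whose values include a repeated exact value, at 4.73. The part of these marker genes in the Notch differences was not tested.

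Against 2208L, 2151R had 6 of 10 macrophage genes called higher (Mrc1 at 2.28, Cd68 at 1.83), and 5 were called lower in 2225L than in 2208L. Over all genes 26.1% were called higher in 2151R and 17.3% lower in 2225L. Of 8 T cell genes 2 (25%) were called higher in 2151R (Trbc2 at 3.04, Cd4 at 1.30), and 3 (37.5%) lower in PBS than in 3day nt samples. In these comparisons 48.8% and 34% of all genes were called. Of 10 skeletal muscle genes 0 were called between 2151R and 2208L, where Ckm differed by -3.81 and Acta1 by -3.52, and their level reached 6.34 in replicate 3 of 2151R and 9.33 in 2208L. Without the 3 samples high in them, limma called 7 of the 10 Notch genes between 2151R and 2208L and 7 between 2225L and 2151R, where it called 7382 and 8200 of all 17271 genes. Between 2225L and 2208L it called 3 of the 10 and 5789 of all genes, with Notch2 gained and Hey1 lost beside Jag2 and Dll1.

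**Figure D5:**
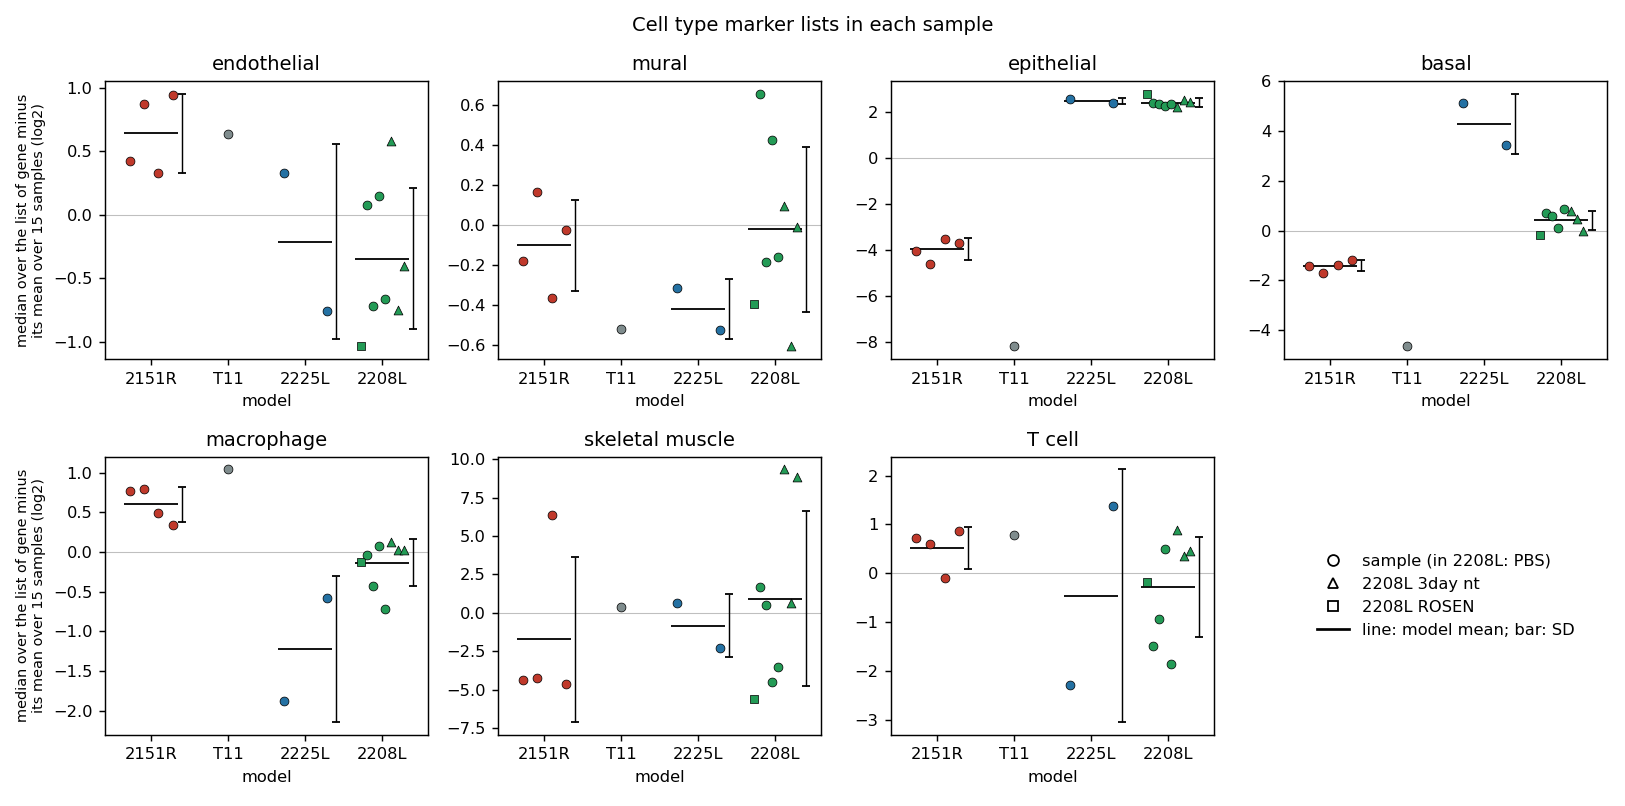
Level of 7 cell type marker lists in each tumour (vertical axis, log2), by model (horizontal axis). Points are samples, lines model means and bars SDs; epithelial genes were lowest in T11 (-8.17), basal genes highest in 2225L and skeletal muscle genes high in 1 sample of 2151R and 2 of 2208L.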

How the data were processed

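Poly(A)-selected RNA-seq of 15 bulk tumours was deposited as a table of 17271 genes. The authors deposited log2 values, one per gene and sample, and per the submitters' processing notes STAR, Salmon and the genome build mm10 were used, with versions not given in the sources used here. The values run from -14.55 to 13.11, and 1124 genes (6.51%) have a median of exactly 0 over these samples. How the values were normalized and centred is not given in the sources used here. Counts were not used here, so no depth or counting interval is given.

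Samples were grouped by the model named in their titles. Differences were tested with the R package limma (limma 3.58.1, R 4.3.3; linear models with eBayes, two-sided, no covariate) on the values as deposited, over all 15 samples for the models and over 7 samples for the subsets of 2208L, with Benjamini-Hochberg adjustment over all 17271 genes. Tables and figures were made with Python 3.11.15. The fit was tested on simulated data with 200 changed genes among 17271. Between 2151R and 2208L it recovered 42% of changes of 1 log2 unit and 82% of changes of 2. These shares were 26% and 61% between 2225L and 2208L, and 15% and 72% between 2225L and 2151R. Between PBS and 3day nt samples they were 1% and 48%. In the same order of comparisons, 11 of 135, 0 of 87, 2 of 89 and 3 of 52 called genes were unchanged ones. The adjusted p depends on how many genes change, and in the data 32.9% to 48.8% of genes were called. These shares therefore do not carry over to the data. The simulated spread was that around model means, so for the subsets of 2208L it included the differences between them. Alternatives covered scaling, variance model, sample weights, gene filters, a minimum difference, left-out samples, subsets of samples and a library prefix covariate. The members and lists were chosen with earlier results of these data known. Of the other pathway genes, the text names the 3 most strongly higher and the 3 most strongly lower called genes per comparison, and of each cell type list the 2 that differed most between 2151R and 2208L. Rbpj in 2151R against 2208L, Dlk1, Hey2, Heyl, Cspg4, Acta2, Flt1, Kcnj8 and Abcc9 were added after their values were seen.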

Additional observations from a re-analysis of the deposited data

Results flagged for a closer look

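Hes1 was -0.51 in replicate 1 of 2151R, above the rest of that model, whose 3 samples lay between -0.86 and -0.82. The gap was 0.873 of the range of the 4 samples, above the limit for a single sample that stands apart. Of 30 sets of values tested in this way 1 stood out, where chance gives about 1 in 20. Without this sample Hes1 was called higher in 2225L than in 2151R (0.75, limma adjusted p 0.0495).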

How the results depend on the processing

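Over 820 recomputed differences of the 10 Notch genes, 742 kept their direction and their side of the threshold, 48 lost a call, 16 gained one and 14 changed sign, none of them a called difference. Of 24 called differences 11 were called under every alternative run: Dll1, Jag1, Notch2 and Notch4 between 2151R and 2208L, Jag2 between 2225L and 2208L, and Dll1, Jag2, Notch1, Notch2, Notch3 and Notch4 between 2225L and 2151R. With sample weights 1 of the Notch genes was called between 2225L and 2208L instead of 3, with 7 other pathway genes instead of 20 and 2158 genes in all instead of 5687. Between 2225L and 2151R sample weights gave 14 other pathway genes instead of 25 and 5252 genes instead of 8398. Between 2151R and 2208L a minimum of 1 log2 unit left 8 of 26 other pathway genes and 5151 of 8434 genes, samples titled NT, nt or PBS alone gave 14 other pathway genes, and leaving out 1 sample gave 17 to 27. Between PBS and 3day nt samples the 7 Notch genes became 2 with that minimum, 0 without the muscle-rich samples, and 4 to 7 with 1 sample left out (4 without replicate 6 of 2208L). The 21 other pathway genes became 37 with weights, 5 with the minimum, 0 without the muscle-rich samples (11 at an unadjusted p under 0.05) and 8 to 27 with 1 sample left out. All genes called there, 5864, became 11692, 2208, 98 and 2379 to 6800. The minimum lowers counts by construction, and leaving out samples leaves fewer to test; otherwise the cause was not tested.

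Changes of sign touched differences that were not called. Jag1 between 2225L and 2208L was 0.068 with quantile normalization, 0.30 with the library prefix as covariate and -0.58 to 0.43 with 1 sample left out. Dll4 there was -0.026 with weights, -0.17 against PBS samples alone and -0.38 to 0.89 with 1 left out. Between 2225L and 2151R, leaving out 1 sample gave -1.06 to 0.21 for Dll4 and -0.37 to 1.44 for Hey1. Between PBS and 3day nt samples Jag1 was 0.0297 with samples centred on their medians and -0.29 to 0.12 with 1 left out, and Jag2 was -0.10 with weights and -0.20 to 0.44 with 1 left out. No paired analysis was possible because no replicate number is shared by samples in their titles. Depth is unknown, and the 2 samples of 2225L and 1 of T11 limit precision.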

Other observations

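For Notch genes called in at least 2 model comparisons, the genes with the most similar values over the 15 samples were sought. Likeness was the root mean square difference after each gene's own mean was removed. Predicted genes (Gm with digits, or Rik) and the 727 genes with a repeated exact value were left out. The SDs of these Notch genes ran from 0.776 (Notch1) to 1.25 (Notch2). For Notch1 the nearest genes were Plekhh1 (0.212) and Etv6 (0.233), and for Notch2 Peak1 (0.262) and Cep170 (0.272). For Notch3 they were Mpp2 (0.426) and Fbxo10 (0.48), and for Notch4 Rai14 (0.336) and Spsb1 (0.339). For Jag1 they were Rbms1 (0.345) and Krit1 (0.372), for Jag2 Spats2l (0.362) and Ppox (0.373), and for Dll1 Arhgef26 (0.345) and Adgrg3 (0.373).

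The genes placed next to each Notch gene give the local level of difference. Medians over windows of 60 genes in chromosome order had an SD of 0.35 between 2151R and 2208L. The SD was 0.36 between 2225L and 2208L and 0.54 between 2225L and 2151R. The genes below are given in 1 comparison each, and the other genes and comparisons are not described. Around Notch2 the median of the 60 neighbours, 30 on each side, was 0.65 between 2151R and 2208L. This was in the direction of Notch2 itself (1.96), which was above 95% of them. Around Jag2 it was 0.37 between 2225L and 2208L, where Jag2 was above 98.3%. Around Notch4 it was 0.61 between 2225L and 2151R, opposite to Notch4 (-2.41), which was above 1.7% of them.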
